A study of Danio rerio with 4 samples.

Results

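The genes described here belong to the families that form the thin filament of muscle and cap or measure it. These are actins, troponins C, I and T, tropomyosins, tropomodulins, leiomodins and nebulin. The genes were chosen by symbol and not by tissue, so members may also be used outside muscle, and 49 genes of the 31388 in the table matched. Of these, 37 had a mean of at least 10 normalized counts over the 4 libraries and are the members described: 7 actins, 2 troponin C, 8 troponin I, 8 troponin T, 6 tropomyosin, 3 tropomodulin and 2 leiomodin genes and *neb*. The values come from RNA-Seq of whole zebrafish embryos at 2 dpf, in 2 control and 2 MZ*tulp3* libraries. Control embryos carry the genotype WT in the labels. MZ*tulp3* embryos are maternal-zygotic mutants of 1 CRISPR/Cas9-induced *tulp3* line, *uf3*, kept in the AB/TL background, and those with severe ventral body curvature were taken; genotype and this selection thus go together. Whether the libraries carried the kidney and pancreas reporter *li1Tg* that the line is kept with, and how many embryos were pooled in a library, is not given in the sources used here. The labels call the libraries biological replicates 1 and 2 of each group.

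Thin filaments are polymers of actin along which tropomyosin lies and blocks the binding of myosin. At rest troponin I holds this block, troponin T ties the complex to tropomyosin, and calcium bound to troponin C lifts the block so that the fibre contracts. Fast skeletal fibres, slow skeletal fibres and the heart use different copies of these proteins, and in zebrafish embryos at this age each of these tissues already contracts. For the troponins the class was taken from the name of the orthologue. *tnnc2*, *tnni2* and *tnnt3* genes were called fast, *tnnc1b*, *tnni1* genes and *tnnt1* slow, and *tnnc1a* and *tnnt2* genes cardiac. Actins, tropomyosins and the fish *tnni4* genes were not placed, because they serve more than 1 kind of muscle or their name gives no class.

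A normalized count is the number of reads on a gene divided by the DESeq2 size factor of its library. Between 22589725 and 29735214 reads fell on genes, of which 40.95% to 71.05% were mitochondrial, least in control replicate 2 and most in MZ*tulp3* replicate 2. Reads of *tulp3* itself were 0 and 36 in control and 0 in both MZ*tulp3* libraries, so its level does not separate the groups. By limma's moderated test with Benjamini-Hochberg adjustment, 0 of 14674 genes tested (0%) had an adjusted p under 0.05, with 1873 at an unadjusted p under 0.05. edgeR also called 0, limma-voom 13 and DESeq2 326. The smallest adjusted p by limma over all genes tested was 0.379, a value that several genes named below share. With 2 libraries per group, 0 calls do not show that levels were equal. The p-values measure the spread between these libraries, and nothing in the sources says which clutches they came from.

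The main test covered 35 of the 37 members, those at 10 or more normalized counts in 2 or more libraries. The log2 fold change, on the scale of log2(normalized count + 2), was above 0 in MZ*tulp3* embryos for 26 and below 0 for 9, against 47.2% of all genes tested above 0. Its median was 0.56, and -0.09 over all genes tested. By limma, 0 of the 35 were past the adjusted threshold (0% of all genes tested), and 6 had an unadjusted p under 0.05, against 12.8% of all genes. Of the 6, 3 were higher (*tpm2*, *actc2* and *tnni4b.2*), against 4.82% of all genes, and 3 lower (*actc1c*, *tnni1d* and *tnnt2b*), against 7.94%. *tnni1d* and *tnnt2b* passed the mean of 10 and the filter of the test through control counts alone, so they could only come out lower. edgeR and limma-voom each called 0 of the members, and DESeq2 called 0 of them against 2.27% of all genes it adjusted. MZ*tulp3* libraries both exceeded the control libraries for 8 of the 35, against 20% of all genes, and both lay below them for 4, against 23.3%. The first share is near that of all genes, and the other is smaller than it. *tnni1d* and *tnnt2b* are among the 4 that lay below. With the replicate number as a term in the model, limma called 3 of the 35, against 2.24% of all genes, but the sources tie the numbers to no shared clutch or day.

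**Figure D1:**
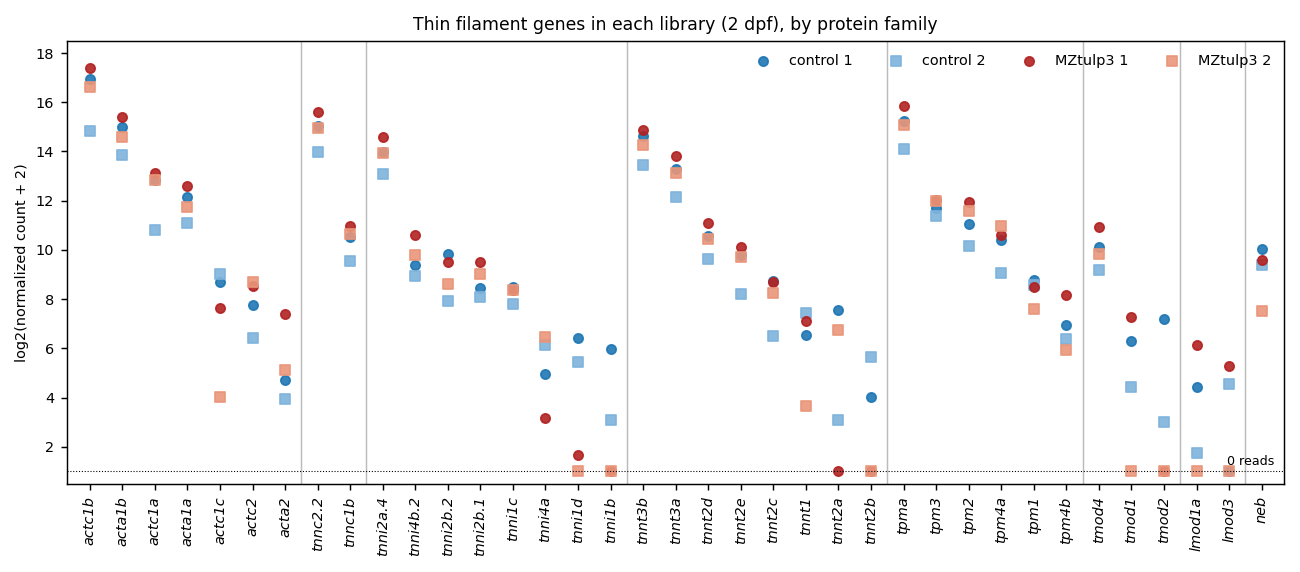
Normalized counts of the 37 thin filament genes, as log2(normalized count + 2), in each of the 4 libraries (colours and symbols), ordered by protein family and by mean within it. Control replicate 2 is the lowest point of most highly read genes, while several genes with a mean under 100 lie on the dotted line of 0 reads.

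Together the members took 3.26% and 1.22% of the non-mitochondrial reads of control replicates 1 and 2, while the MZ*tulp3* libraries gave 3.51% and 2.60% (95% Wilson intervals of 3.25% to 3.27%, 1.21% to 1.22%, 3.50% to 3.52% and 2.59% to 2.61%, for counting error only). Control replicate 2 thus stood apart from the other libraries, including its own replicate. In whole embryos, the number of muscle cells and the RNA per muscle cell cannot be told apart, and the cause was not tested. Other muscle genes, given below, did not all share this low level. By the median around each gene's own mean, the 15 fast fibre markers tested were also lowest in control replicate 2 (-0.40 on the log2 scale). Within that list *myhz1.1*, *myhz1.2*, *myhz2* and *mybpc2b*, and outside it the titin gene *ttn.2*, were highest there. *myhz2* and *mybpc2b* were named after their values were seen. The order with MZ*tulp3* replicate 1 highest and control replicate 2 lowest was that of 18 of the 35 tested members, against 7.78% of all genes. This order was picked after the values were seen, so its share describes the members and tests nothing. Of the 15 members with a mean of at least 1000 (a limit chosen after the values were seen) all had a log2 fold change above 0, against 53.7% of genes at that level, and 14 were in that order, against 15.8%. The median log2 difference of control replicate 1 over control replicate 2 was 1.09 in these 15 genes and -0.07 in all genes at that level. For MZ*tulp3* replicate 1 over MZ*tulp3* replicate 2 it was 0.66, against 0.06. The distance between control replicates is larger than the median log2 fold change between the groups, which was 0.76 for the 15 genes. Leaving out control replicate 2 gave 0.23, and leaving out control replicate 1 gave 1.28.

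Of the 6 fast troponins 5 were highest in MZ*tulp3* replicate 1 and lowest in control replicate 2. Troponin C of fast fibres, *tnnc2.2* (ENSDARG00000070835), the calcium sensor, had 34001 and 15944 normalized counts in control against 50258 and 31835 in MZ*tulp3* libraries, each pair in the order of replicates 1 and 2, as in all that follows. The groups overlapped, since control replicate 1 was above MZ*tulp3* replicate 2 (log2 fold change 0.78, standard error 0.44, adjusted p = 0.507 by limma, with a range of 0.296 to 0.682 over other tests and filters). The inhibitory subunit *tnni2a.4* (ENSDARG00000029069) had 16274 and 8686 in control against 24795 and 15660 in MZ*tulp3* libraries (log2 fold change 0.73, standard error 0.39, adjusted p = 0.486 by limma, range 0.296 to 0.656). Its libraries stood in the same order as those of *tnnc2.2*. Omitting control replicate 2 left 0.23 for *tnnc2.2* and 0.28 for *tnni2a.4*.

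Of the fast troponin T genes, which join the complex to tropomyosin, *tnnt3b* (ENSDARG00000068457) had 25468 and 11060 normalized counts in control against 29624 and 19914 in MZ*tulp3* libraries, giving a log2 fold change of 0.53. *tnnt3a* (ENSDARG00000030270) had 9895.5 and 4571 in control against 14404 and 8993 in MZ*tulp3* libraries, giving a log2 fold change of 0.76. Both overlapped between the groups. *tnni2b.1* (ENSDARG00000035958) was the 1 fast troponin with both MZ*tulp3* libraries above both control libraries, at 348 and 273 against 734 and 512 (log2 fold change 0.99, standard error 0.43, adjusted p = 0.398 by limma, range 0.371 to 0.614). Its tandem neighbour *tnni2b.2* had 901 and 238 in control against 729 and 392 in MZ*tulp3* libraries, with control replicate 1 the highest library. Here the log2 fold change was 0.20, and it changed sign to -0.75 without control replicate 2. For the class the median was 0.74, and omitting a library gave 0.22 (control replicate 2), 1.17 (control replicate 1), 0.41 (MZ*tulp3* replicate 1) and 1.08 (MZ*tulp3* replicate 2).

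**Figure D2:**
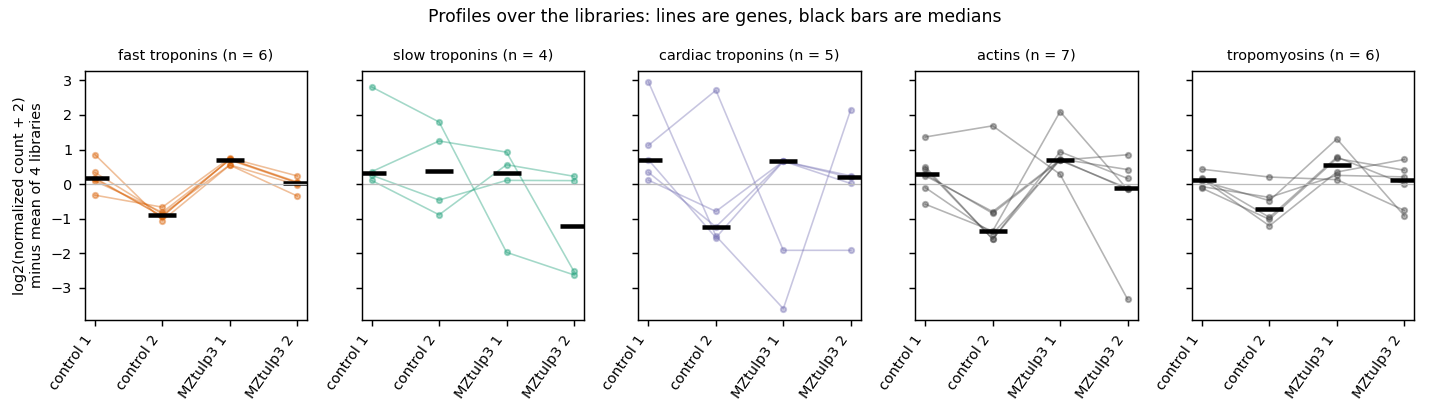
Each line is a tested gene, plotted as log2(normalized count + 2) minus its mean over the 4 libraries, for fast, slow and cardiac troponins, actins and tropomyosins; black bars are medians. The lines of the fast troponins lie close together with control replicate 2 lowest, and those of the slow and cardiac troponins cross.

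Among the slow troponins the members went separate ways. *tnnc1b* (ENSDARG00000037539), troponin C of slow fibres, had 1482 and 743 normalized counts in control against 2032 and 1611 in MZ*tulp3* libraries, so the groups did not overlap (log2 fold change 0.78, standard error 0.39, adjusted p = 0.458 by limma, range 0.337 to 0.661). Omitting control replicate 2 left 0.29. *tnni1c*, a slow troponin I, had overlapping groups, at 362 and 219 in control against 326 and 325 in MZ*tulp3* libraries, with a log2 fold change of 0.21. *tnnt1*, the slow troponin T, had 91.5 and 171 in control against 136 and 10.6 in MZ*tulp3* libraries. Its log2 fold change of -1.61 rests on MZ*tulp3* replicate 2 and was 0.12 without that library.

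The other *tnni1* genes, called slow by name alone, had few reads. *tnni1d* (ENSDARG00000073766) had 84.7 and 40.9 normalized counts in control, from 88 and 62 reads, and 1 read and 0 reads in MZ*tulp3* replicates 1 and 2. That is 101-fold lower in MZ*tulp3* embryos, with an exact 95% counting interval of 17.9 to 4019. Such an interval covers counting error only and leaves out the spread between libraries. The ratio was 51.3 (9.07 to 2040) when MZ*tulp3* replicate 2 was omitted, and at least 17.7-fold lower when MZ*tulp3* replicate 1 was. By limma its unadjusted p was 0.0252 and its adjusted p 0.379, with a range of 0.154 to 0.614 over other tests and filters. *tnni1d* is a member through its control counts alone, and these also took it past the filter of the main test. Its direction thus follows from that choice. *tnni1b* (ENSDARG00000052708) had 60.6 and 6.60 in control and no read in either MZ*tulp3* library, at least 9.64-fold lower against the limit of 3 reads per library, but at least 1.89-fold without control replicate 1. It is a member through its control counts alone, so its direction follows from that choice. It did not pass the filter of the main test, and the narrower slow class, tried as an alternative, leaves it out. DESeq2 gave an adjusted p of 0.302 and limma with no filter 0.640. The class median over the 4 tested genes, -0.70, lies between genes that point in opposite directions. Omitting MZ*tulp3* replicate 1 gave -1.56, and omitting MZ*tulp3* replicate 2 turned it to 0.17.

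Of the cardiac troponins, *tnnt2a* (ENSDARG00000020610), whose loss gives the silent heart phenotype in zebrafish, had 187 and 6.60 normalized counts in control against 0 and 106 in MZ*tulp3* libraries. Each group thus held 1 library with over 100 and 1 with fewer than 10, and the log2 fold change of -1.45 turned to 0.77 when control replicate 1 was omitted and to 1.43 when MZ*tulp3* replicate 1 was. The heart's troponin C gene, *tnnc1a*, had 24.1 normalized counts in control replicate 1 and 0 reads in each other library, so its mean of 6.02 lies under the minimum. *tnnt2b* (ENSDARG00000100694) had 14.4 and 47.5 in control and no read in either MZ*tulp3* library, at least 8.88-fold lower. It too is a member through its control counts alone. The bound was 4.14-fold when control replicate 2 was left out and 13.6-fold when control replicate 1 was (unadjusted p = 0.0419 and adjusted p = 0.384 by limma, range 0.328 to 0.619).

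The remaining *tnnt2* paralogues had more reads. *tnnt2d* had 1495 and 798 normalized counts in control against 2188 and 1399 in MZ*tulp3* libraries. *tnnt2e* had 887 and 296 in control against 1109.5 and 829 in MZ*tulp3* libraries. *tnnt2c* had 429 and 88.5 in control against 418 and 301 in MZ*tulp3* libraries. Control replicate 2 was the lowest library for all 3 genes, and the groups overlapped for each. Their log2 fold changes were 0.68, 0.90 and 0.85, and that of *tnnt2c* was -0.27 without control replicate 2. The class median of 0.68 turned to -0.27 when control replicate 2 was omitted and was 1.13 when control replicate 1 was. Taking *tnnt2a* alone for the heart gives its own -1.45.

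Troponin I of the *tnni4* kind was read from 2 members. *tnni4b.2* (ENSDARG00000036671) had 671 and 492 normalized counts in control against 1562 and 872 in MZ*tulp3* libraries, both MZ*tulp3* libraries above both control libraries (log2 fold change 1.02, standard error 0.40, unadjusted p = 0.0392 and adjusted p = 0.381 by limma, range 0.251 to 0.588). *tnni4a* had 28.9 and 68.0 in control against 6.87 and 86.2 in MZ*tulp3* libraries, so the MZ*tulp3* libraries enclosed the control libraries.

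**Figure D3:**
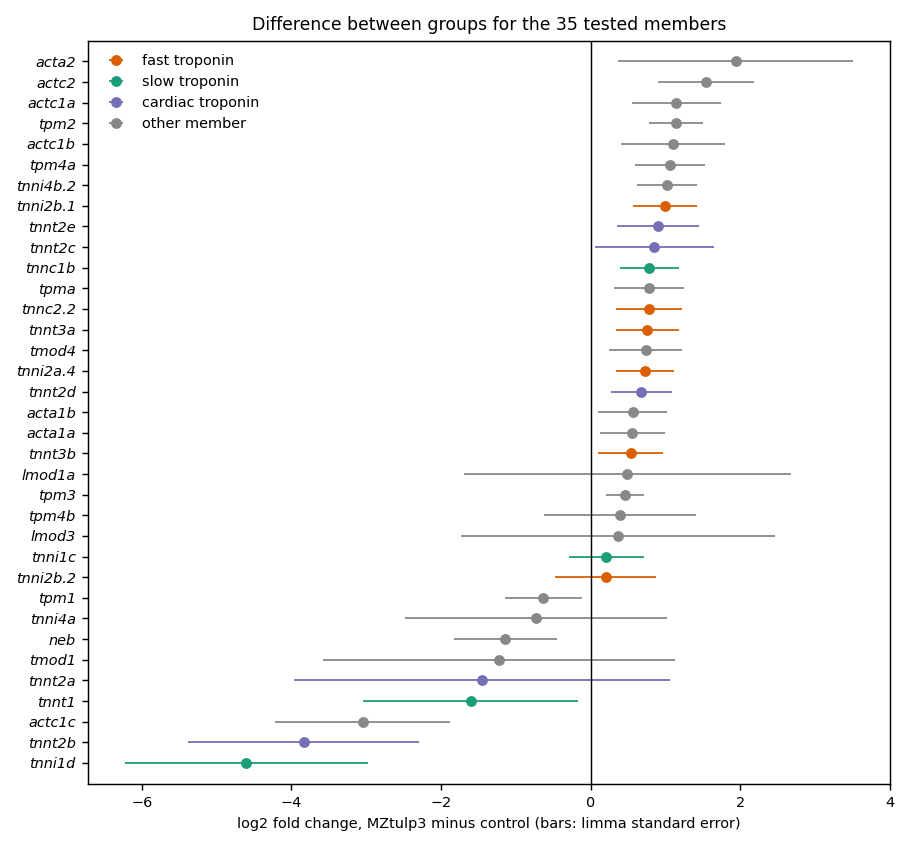
log2 fold change of MZ*tulp3* minus control for the 35 tested genes, with limma's standard error, coloured by troponin class. The 6 fast troponins lie between 0.20 and 0.99, while slow troponins run from -4.60 to 0.78 and cardiac troponins from -3.83 to 0.90. The low ends are *tnni1d* and *tnnt2b*, with hardly a read in MZ*tulp3* libraries, and depend on the added 2. With pseudocounts of 0.5 and 10 *tnni1d* was at -6.03 and -2.72, and *tnnt2b* at -5.74 and -1.91.

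Actins form the backbone of the filament. *actc1b* (ENSDARG00000099197), named for the heart but also used by skeletal muscle in zebrafish, had 126266 and 29501 normalized counts in control against 170901 and 100107 in MZ*tulp3* libraries. Control replicate 2 was far below the other libraries, and the groups overlapped (log2 fold change 1.1, standard error 0.70, adjusted p = 0.557 by limma, range 0.263 to 0.818). Without control replicate 2 its log2 fold change was 0.05, and without control replicate 1 it was 2.15. *actc1a* behaved alike, at 7394 and 1810 in control against 9018 and 7292 in MZ*tulp3* libraries, giving a log2 fold change of 1.15 that was 0.13 without control replicate 2. The skeletal actins *acta1b* (32941 and 15034 in control, 43398 and 24896 in MZ*tulp3* embryos) and *acta1a* (4501.5 and 2191 in control, 6215 and 3439 in MZ*tulp3* embryos) had log2 fold changes of 0.56 each. Without control replicate 2 these were -0.0031 and 0.04.

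The groups did not overlap for 3 of the 7 actins, all with fewer reads. For 2 the MZ*tulp3* libraries were the higher, against 20% of all genes, and for 1 the lower, against 23.3%. *actc2* (ENSDARG00000057911) had 215 and 83.8 normalized counts in control against 373 and 417 in MZ*tulp3* libraries (log2 fold change 1.54, standard error 0.64, unadjusted p = 0.0481 and adjusted p = 0.389 by limma, range 0.287 to 0.6), which was 0.87 without control replicate 2 and 2.21 with control replicate 1 omitted. *actc1c* (ENSDARG00000076126) lay the other way, with 416 and 521 in control against 196 and 14.2 in MZ*tulp3* libraries (log2 fold change -3.05, standard error 1.17, unadjusted p = 0.0353 and adjusted p = 0.379 by limma, range 0.0933 to 0.531). Omitting MZ*tulp3* replicate 2 left -1.24, and omitting MZ*tulp3* replicate 1 left -4.85. *acta2* (ENSDARG00000045180), the smooth muscle actin, had 24.1 and 13.2 in control against 165 and 33.0 in MZ*tulp3* libraries. Both MZ*tulp3* libraries were above control, but by unequal amounts (log2 fold change 1.94, standard error 1.57, adjusted p = 0.644 by limma, range 0.414 to 0.779), and the value was 0.82 without MZ*tulp3* replicate 1. The muscle actins of vertebrates are nearly identical proteins, so RSEM may have split reads between their genes, and the value of any 1 actin, above all one with few reads beside *actc1b*, is uncertain.

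Of the 6 tropomyosins 3 were higher in both MZ*tulp3* libraries, against 20% of all genes, and 1 was lower, against 23.3%. *tpm2* (ENSDARG00000104682), β-tropomyosin, had 2148 and 1147 normalized counts in control against 3899 and 3081 in MZ*tulp3* libraries. Its MZ*tulp3* libraries lay above the control libraries, and its unadjusted p of 0.0155 was the smallest of all members by limma (log2 fold change 1.14, standard error 0.36, adjusted p = 0.379 by limma, range 0.1 to 0.502). Leaving out 1 library gave 0.69 to 1.59. *tpm4a*, which the zebrafish heart needs in order to contract, had 1353.5 and 528 in control against 1556 and 2002 in MZ*tulp3* libraries (log2 fold change 1.06, adjusted p = 0.409 by limma, range 0.209 to 0.598). It was 0.38 without control replicate 2. *tpm3*, which gives slow fibre and non-muscle tropomyosins in mammals, had 3328 and 2683 in control against 4172 and 4047 in MZ*tulp3* libraries, a small difference of 0.46 with a standard error of 0.25. These 3 genes were higher in both MZ*tulp3* libraries, while *tpm1* was lower in both, at 439 and 375 in control against 356 and 191 in MZ*tulp3* libraries (log2 fold change -0.63, standard error 0.51). *tpma* (ENSDARG00000033683), the α-tropomyosin that drew the most reads of the family, had 38764.5 and 17540 in control against 58803 and 34229 in MZ*tulp3* libraries. Its libraries stood in the order seen for *tnnc2.2*, with overlapping groups, at a log2 fold change of 0.78. *tpm4b* had 120 and 80.5 in control against 283 and 59.0 in MZ*tulp3* libraries, where the MZ*tulp3* libraries enclosed the control libraries.

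At the ends of the filament, tropomodulins cap the pointed end and leiomodins start or lengthen filaments there. *tmod4*, the muscle tropomodulin, had 1116 and 578 normalized counts in control against 1958 and 914 in MZ*tulp3* libraries, an overlapping pair of groups with a log2 fold change of 0.73. *tmod1* had 76.1 and 19.8 in control against 155 and 0 in MZ*tulp3* libraries, so the highest and the lowest library were both MZ*tulp3*. *tmod2* (ENSDARG00000002571) had 144 and 5.94 in control and no read in either MZ*tulp3* library, at least 21.6-fold lower, but at least 1.70-fold without control replicate 1, and it did not pass the filter of the main test. Its adjusted p was 0.0671 by DESeq2 and 0.623 by limma with no filter. As it is a member through its control counts alone, its direction follows from that choice. Which tissue its reads came from was not tested. The leiomodins were near the limit of detection, *lmod1a* at 19.3 and 1.32 in control against 67.6 and 0 in MZ*tulp3* libraries, and *lmod3* at 0 and 21.1 in control against 36.6 and 0 in MZ*tulp3* libraries.

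*neb* (ENSDARG00000032630) encodes nebulin, a giant protein that runs along the filament. It had 1046 and 659 normalized counts in control against 779 and 181 in MZ*tulp3* libraries (log2 fold change -1.14, standard error 0.69, adjusted p = 0.537 by limma, range 0.323 to 0.819). Omitting MZ*tulp3* replicate 2 left -0.09, and omitting MZ*tulp3* replicate 1 left -2.19. Beside *tpma*, its profile was a different one. The ratio of *neb* to *tpma* normalized counts was 0.0270 and 0.0376 in control against 0.0132 and 0.00528 in MZ*tulp3* libraries. The titin genes *ttn.2* and *ttn.1*, which encode the giant protein that spans from the Z-disc to the middle of the sarcomere, are markers of the sarcomere outside the thin filament. *ttn.2* had 5723 and 15542.5 in control against 3643 and 3109 in MZ*tulp3* libraries, and its ratio to *tpma* was 0.148 and 0.886 in control against 0.0620 and 0.0908 in MZ*tulp3* libraries. *ttn.1* had 1999.5 and 4271 in control against 1210 and 1200 in MZ*tulp3* libraries. For both titin genes control replicate 2, the lowest library for *tpma*, was the highest. *ttn.1* and these ratios were chosen after their values were seen.

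Fast, slow and cardiac forms were compared first as ratios of sums within each library, where the scaling of libraries has no part. The summed fast troponins were 41.8 and 34.5 times the summed slow troponins in control and 48.3 and 39.7 times in MZ*tulp3* embryos. The groups overlapped, at a log2 difference of 0.21 (exact two-sided permutation test, p = 0.667, and 1 adjusted over 2 ratios). The ratio of cardiac to fast troponins was 0.0347 and 0.0303 in control against 0.0308 and 0.0341 in MZ*tulp3* libraries, a log2 difference of -0.0011 (exact two-sided permutation test, p = 1, and 1 adjusted). With 2 against 2 libraries the smallest p this test can give is 0.333. The ratio of cardiac to fast forms covered a log2 range of 0.19 over all 4 libraries. It describes *tnnt2d*, *tnnt2e* and *tnnt2c*, which hold most of the cardiac sum and were classed by name alone, and not the heart. The sum was highest in MZ*tulp3* replicate 1, at 3716, where *tnnt2a* had 0 reads. *tnni1d*, *tnni1b* and *tnnt2b* also hardly enter the sums. Taken as the mean over genes of log2(normalized count + 2), the fast to slow difference was 2.42 and the cardiac to fast difference -1.24. On this measure the groups did not overlap for either ratio, at the smallest p of 0.333 by the exact permutation test. Each gene weighs the same in this mean, so *tnni1d*, *tnni1b* and *tnnt2b*, with few or no reads in MZ*tulp3* libraries, count in full. These genes became members through their control counts, so the differences on this measure follow in part from the choice of members. Where no read was found, the added 2 sets the value. Since 2 is added to scaled counts, the scaling of libraries has a part in this measure. Values with another pseudocount or with a library omitted are not given for it.

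**Figure D4:**
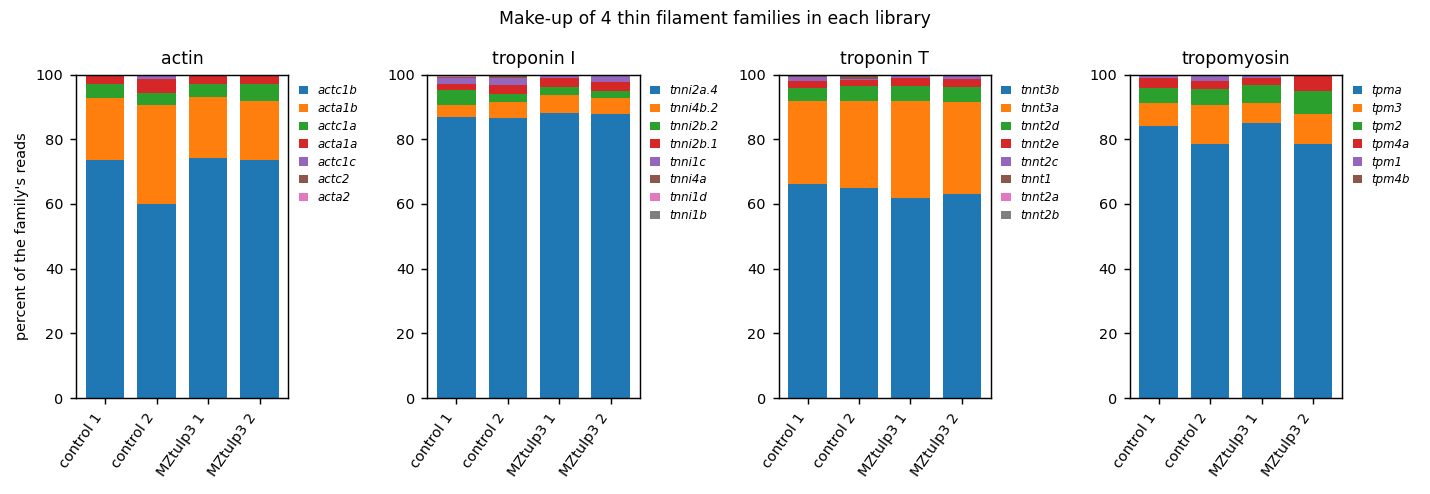
Percent of each family's reads that fell on each of its genes, for actins, troponin I, troponin T and tropomyosin in the 4 libraries. The share of *actc1b* among actins is 60.0% in control replicate 2 and 73.5% to 74.2% in the other libraries, and *tnni2a.4* takes 86.7% to 88.1% of troponin I reads in all 4.

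Shares of reads within a family depend on transcript length as well as on level, so they are compared between libraries and not between genes. For actins, troponins and tropomyosins their intervals (95% Wilson, counting error only) reach at most 0.582 percentage points to either side. *tnnc2.2* took 95.2% to 96.1% of the troponin C reads and *tnni2a.4* 86.7% to 88.1% of the troponin I reads. Within troponin T, *tnnt3b* had 66.2% and 64.9% in control against 61.9% and 63.1% in MZ*tulp3* libraries, and *tnnt3a* had 25.7% and 26.8% in control against 30.1% and 28.5% in MZ*tulp3* libraries. The groups did not overlap for these 2 shares, which were chosen after their values were seen. Among actins, *actc1b* had 73.5% and 60.0% in control against 74.2% and 73.5% in MZ*tulp3* libraries, and *acta1b* 19.2% and 30.6% in control against 18.8% and 18.3% in MZ*tulp3* libraries. Control replicate 2 was the library apart. The ratio of *acta1b* to *acta1a* was 7.32 and 6.86 in control against 6.98 and 7.24 in MZ*tulp3* libraries, steady in all 4.

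Reads were absent from 1 or more libraries for 8 of the 37 members, against 33.7% of all genes with a mean of at least 10. All 8 were among the 10 members with a mean under 100, where 65.5% of all genes lacked reads in at least 1 library. In both MZ*tulp3* libraries 3 members (*tmod2*, *tnni1b* and *tnnt2b*) had 0 reads, against 4.87% of all genes with a mean of at least 10 and 9.81% of those with a mean of 10 to 100. In both control libraries 0 members did, against 4.8%. *tmod2*, *tnni1b* and *tnnt2b* passed the mean of 10 through control counts alone, as did *tnni1d*, with 1 read and 0 reads in MZ*tulp3* replicates 1 and 2. That they are lower in MZ*tulp3* embryos thus follows from the choice of members. A count of 0 leaves room for a level of 3 reads, which is 1.98 to 3.54 normalized counts depending on the library. *tnni1b* and *tnnt2b* lie next to each other in the RefSeq annotation (GRCz12tu, used for names and gene order), as pairs of troponin I and T genes often do in vertebrates. The pair *tnni4a* and *tnnt2e* has 1 gene between, as have *tnni1a*, on which no read fell, and *tnnt2a*. In MZ*tulp3* replicate 1 *tnni4a* was at its lowest and *tnnt2e* at its highest, so these neighbours did not share a profile. The pair *tnni2a.4* and *tnnt3a* has 2 genes between, and *tnni2b.1* and *tnnt3b* also have 2. The genes of the *tnnt3a* pair and of the *tnnt3b* pair were all highest in MZ*tulp3* replicate 1 and lowest in control replicate 2. So were 18 of the 35 tested members, against 7.78% of all genes. *tnni1d*, *tnnt2c*, *tnnt2e* and *tnni4a* are on the chromosome of *tulp3*, with 534, 255, 148 and 146 protein-coding genes between, and the part of sequence linked to the mutation was not tested. *lmod2b*, under the minimum, is nearer, with 63 between, and had 10.6 and 6.60 normalized counts in control and no read in either MZ*tulp3* library. This is not particular to *lmod2b*, since no other matched gene under the minimum had a read in an MZ*tulp3* library.

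The 12 matched genes under the minimum had means from 0 to 9.57 normalized counts. The members just inside it were *lmod3* and *tnnt2b*, with means of 14.4 and 15.5, and those just outside it *tnni2a.3* and *lmod1b*, with 9.57 and 6.60. No read fell on 6 of the 12 (*lmod2a*, *nebl*, *tnnc2.1*, *tnni1a*, *tnni2a.1* and *tnni3k*), and *tnni3k*, which the pattern caught by its name, is a kinase.

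**Figure D5:**
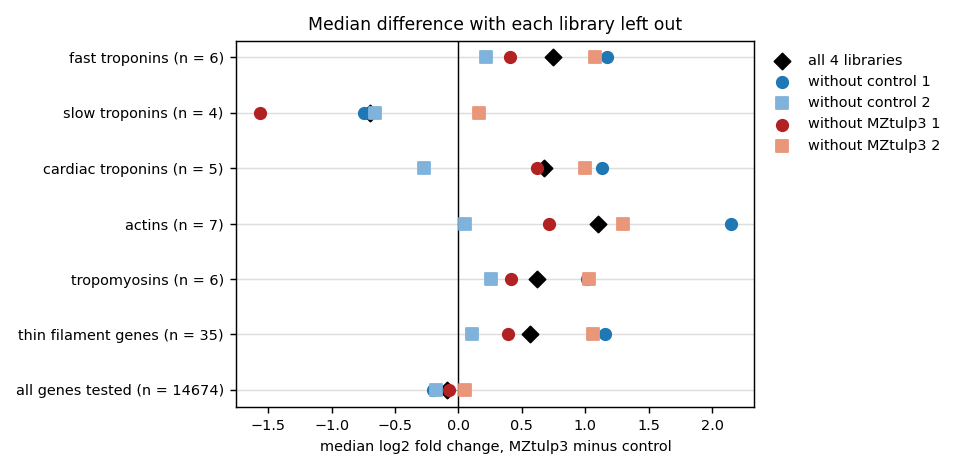
Median log2 fold change of MZ*tulp3* minus control over the tested genes of each class, with all 4 libraries (black) and with each library left out (colours). Without control replicate 2 the median of fast troponins is 0.22 and that of actins 0.05, and without control replicate 1 they are 1.17 and 2.15.

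Other genes that build or hold the filament were read from a list of 36 symbols, of which 30 were tested, 18 higher and 12 lower in MZ*tulp3* embryos, at a median of 0.38. This median was -0.06 with control replicate 2 omitted, 0.02 with MZ*tulp3* replicate 1 omitted and 0.71 with MZ*tulp3* replicate 2 omitted. By limma 0 were past the adjusted threshold, and 5 were at an unadjusted p under 0.05, against 12.8% of all genes. The single DESeq2 call, against 2.27% of all genes it adjusted, was *ttn.2* (log2 fold change -1.49, adjusted p = 0.0087 by DESeq2 and 0.379 by limma). The members of the list with the largest differences at a mean of at least 50 were *tcap*, the titin cap of the Z-disc, at 25.0 and 0 in control against 111 and 250.2 in MZ*tulp3* libraries, and *unc45b*, a myosin chaperone, at 28.9 and 54.1 against 79.0 and 197. Their adjusted p by limma was 0.384 and 0.603. Both reached this mean only with their MZ*tulp3* counts, and *tcap* also passed the filter of the test only with them. Their direction thus follows in part from that choice. *capzb*, which caps the barbed end of the filament and was named after its values were seen, had 1510.5 and 784 in control against 2435 and 2387 in MZ*tulp3* libraries.

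Muscle and heart markers that are no thin filament genes were set beside these values. Over all genes tested 47.2% had a log2 fold change above 0, and DESeq2 called 2.27% of those it adjusted. Of 15 fast fibre markers tested, 9 were higher and 6 lower, at a median of 0.44 on the log2 scale that was -0.01 without control replicate 2, 0.08 when MZ*tulp3* replicate 1 was omitted and 0.72 when MZ*tulp3* replicate 2 was. DESeq2 called 2 of them, the myosin heavy chains *myhz1.1* (34038 and 34658 in control, 12994 and 10867 in MZ*tulp3* embryos) and *myhz1.2*, both lower in MZ*tulp3* embryos (adjusted p = 1.4e-05 and 0.0275 by DESeq2, and 0.379 each by limma). Of 6 slow fibre markers 5 were higher, with a median of 0.81. It was 1.16 and 1.73 with control replicates 1 and 2 omitted, and 0.76 and 2.21 with MZ*tulp3* replicates 1 and 2 omitted. DESeq2 called 2 of these markers, among them *myl10* (2605 and 1507 in control, 5621 and 4144 in MZ*tulp3* embryos, adjusted p = 0.0459 by DESeq2 and 0.379 by limma). The slow markers other than *smyhc1*, *myl10* and *prox1a* had 0 reads in control replicate 1. They passed the filter of the test only with MZ*tulp3* counts, so their direction follows in part from that choice. All of them were higher, and the other DESeq2 call was among them. So were the slow markers at an unadjusted p under 0.05 by limma, except *myl10*. Of 7 heart markers tested 6 were higher, with a median of 0.92 that was 0.55 with control replicate 2 omitted. Their summed normalized counts were 571 and 391 in control against 1050 and 804 in MZ*tulp3* libraries, with *myh6* at 0 reads. Of 3 smooth muscle and mural markers tested all had a log2 fold change above 0 but overlapping groups, with *cnn1b* and *desmb* at 0 reads. Their median of 0.42 turned to -0.03 with control replicate 1 omitted and to -0.40 with MZ*tulp3* replicate 1 omitted, and was 0.99 and 1.04 with control replicate 2 and MZ*tulp3* replicate 2 omitted. Limma called 0 genes of each of these 4 lists, with 3 fast, 3 slow, 0 heart and 0 smooth muscle markers at an unadjusted p under 0.05, against 12.8% of all genes.

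Markers of other cells were read in the same way, again beside 47.2% of all genes above 0 and 2.27% called by DESeq2. The 9 epidermis markers were all higher in MZ*tulp3* embryos, with a median log2 fold change of 1.27, summed normalized counts of 262155 and 188662 in control against 490861 and 596402 in MZ*tulp3* libraries, and 6 called by DESeq2. Of 8 neuron markers 7 were lower, with a median of -1.01 (-0.51 with MZ*tulp3* replicate 2 omitted and -1.62 with MZ*tulp3* replicate 1 omitted), sums of 14695 and 19791 in control against 11838 and 7586 in MZ*tulp3* libraries, and 2 called by DESeq2. The 4 blood markers tested had a median of 0.44, with sums of 7056.5 and 4131 in control against 3910 and 13274 in MZ*tulp3* libraries. That median turned to -0.27 with MZ*tulp3* replicate 2 omitted and was 1.57 with MZ*tulp3* replicate 1 omitted. Limma called 0 genes of each of these lists, with 7 epidermis, 4 neuron and 0 blood markers at an unadjusted p under 0.05, against 12.8%. The part of these cell types in the values of the thin filament genes was not tested.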

How the data were processed

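Total RNA of whole embryos was sequenced after poly(A) enrichment. The authors processed reads with nf-core/rnaseq (v3.18.0; Trim Galore, STAR and RSEM on GRCz10) and normalized them with DESeq2 (v1.42.1). The deposited signal values, although named counts, are reads divided by 1 size factor per library, since 100% of them are whole multiples of 1 constant (tolerance 0.001 reads). The fixed design named limma for this case. Deposited regularized logarithms and columns of the authors' comparison (fold changes, p-values) were not used.

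Genes with at least 10 normalized counts in 2 libraries were tested by limma 3.58.1 with a variance trend on log2(normalized count + 2), with Benjamini-Hochberg adjustment over 14674 genes and a threshold of 0.05. Recovered reads went to edgeR 4.0.16, limma-voom and DESeq2 1.42.0 (R 4.3.3) as alternatives. All were run on simulated counts with known changes. At the spread of these libraries the simulation gave DESeq2 more false than true calls. That balance depends on how many changes were simulated and on their size, so it does not give the share of false calls here. DESeq2's calls are given beside limma's. Other alternatives were TMM scaling, pseudocounts of 0.5 and 10, other filters, other class limits, a replicate term, and omission of single libraries. Ranges given for adjusted p-values cover the other tests, scalings, pseudocounts and filters.

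Members, classes, gene lists and tests were chosen with earlier results of these data known. Values per library are given for the member with most reads in each family, the largest differences, members apart between groups, members at 0 reads and *acta2*, and others for completeness. Of other lists, the 2 genes with the largest difference at a mean of at least 50 or those called were eligible for naming. A rule on near-identical paralogues could not be applied without sequences. Levels are not compared between genes, because transcript lengths were not used here. Of the 49 symbols, 48 were matched in the RefSeq table. Coordinates are not given, because its build differs. The counting is not stated to use strand.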

Additional observations from a re-analysis of the deposited data

How the results depend on the processing

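Under every alternative without a replicate term 0 thin filament genes were past the threshold, while over all genes limma-voom called 13, DESeq2 326 and limma on genes with at least 10 in every library 112. With the replicate block (the number as a term) limma called 329 genes and 3 members (*actc1a*, *tpm2* and *actc1c*). The numbers share no stated origin, and replicate differences in the groups had a correlation of -0.0029 across genes. That correlation does not describe the members. Replicate 1 was above replicate 2 for 30 of the 35 tested members in control and for 30 in MZ*tulp3* libraries. Over all 14674 genes tested this held for 7205 and 7630. For slow troponins the median log2 fold change was 0.21 with at least 10 in every library and with the wide class, and -1.56 to 0.17 with 1 library left out. For cardiac troponins it was -1.45 in the narrow class. The cardiac to fast difference became 0.29 with wide classes and -0.097 to 0.095 with 1 library left out, and it has no narrow value because *tnnt2a* had 0 reads in MZ*tulp3* replicate 1. Of 35 tested members 23 kept their sign in every fit. With other tests or pseudocounts, *tmod1* was at 0.70 (edgeR) and 0.69 (DESeq2), *tnni2b.2* at -0.024 and -0.022, and *lmod1a* at -0.040 (pseudocount 0.5). With 1 library left out, 12 changed sign: *acta1b* (-0.0031 to 1.13), *lmod1a* (-2.07 to 3.05), *lmod3* (-1.77 to 2.51), *tmod1* (-4.37 to 1.92), *tnni1c* (-0.15 to 0.57), *tnni2b.2* (-0.75 to 1.16), *tnni4a* (-2.39 to 0.92), *tnnt1* (-3.33 to 0.12), *tnnt2a* (-4.33 to 1.43), *tnnt2c* (-0.27 to 1.98), *tnnt3b* (-0.068 to 1.13) and *tpm4b* (-0.72 to 1.5). The lone library left in a group is then assumed to vary like the others. The cause of these changes was not tested. At means under 100, reads limit what can be said, since most genes there were at 0 in 1 library.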
